A study of Mus musculus with 24 samples.

Results

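The 9 genes described here encode cell-surface receptors through which adrenaline and noradrenaline, acetylcholine and adenosine act on the heart: the alpha1-adrenergic receptors Adra1a, Adra1b and Adra1d, the beta-adrenergic receptors Adrb1 and Adrb3, the muscarinic receptor Chrm2 and the adenosine receptors Adora1, Adora2a and Adora2b. They were taken by symbol from the per-library gene counts of 24 mouse heart libraries, and all 9 were found among 24421 genes. Of these, 8 passed the filter on low counts that left 15804 genes for testing, and Adrb3 did not.

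All of these receptors span the membrane and signal through heterotrimeric G proteins. Beta-adrenergic receptors and the adenosine receptors encoded by Adora2a and Adora2b couple mainly to Gs, which stimulates adenylyl cyclase and raises cyclic AMP. Chrm2 and Adora1 couple to Gi, which inhibits adenylyl cyclase, and the Gi beta-gamma subunits open potassium channels that slow the heart. Alpha1-adrenergic receptors couple to Gq, which activates phospholipase C.

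The libraries came from hearts of male mice aged 14 weeks, fed chow, on a mixed background described as mainly C57BL/6N with a part of 129, and carried different alleles of Acadl and Acadvl, which encode the long-chain and very long-chain acyl-CoA dehydrogenases of mitochondrial fatty acid oxidation. There were 4 libraries of Acadl KO / Acadvl wt, 5 of Acadl KO / Acadvl Het, 4 of Acadl Het / Acadvl KO, 3 of Acadl Het / Acadvl Het, 4 of Acadl Het / Acadvl wt and 4 of the wild type, Acadl wt / Acadvl wt. The Acadvl KO hearts and their Acadvl wt controls are thus all Acadl Het, and the labels do not say how the alleles were made. Whether each library came from its own mouse is not stated, and a p-value here reflects the scatter of these samples, which may be technical.

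Library totals ran from 34320838 to 51743114 counts, and the RNA isolation batches, of 9 and 15 libraries, both held every genotype. Acadvl reads fell in Acadvl KO hearts against Acadvl wt hearts, with a log2 of -1.45 (edgeR adjusted p = 9.689e-08, SE 0.12). Acadl reads went against the label, at 1894 ± 167 CPM (counts scaled to each library's TMM-corrected size) in Acadl KO / Acadvl wt hearts and 1358 ± 42.0 CPM in wild type (SD, n = 4 each), so these hearts are called labelled Acadl KO. The heart label was matched by summed ventricular markers of 76420 to 98080 CPM. Alb, a hepatocyte gene, exceeded 10 CPM in labelled Acadl KO / Acadvl wt replicates 2 and 3, in Acadl Het / Acadvl KO replicate 2 and in all 3 Acadl Het / Acadvl Het libraries. In Acadl Het / Acadvl Het replicate 1 the ribosomal RNA precursor Rn45s took 17.258% of the reads counted.

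Corrected for merged exon length, Chrm2 was the most abundant of the receptor transcripts, at 15.6 ± 7.63 CPM per kb (SD over the 24 libraries). Adra1b followed at 9.35 ± 4.56, Adora2a at 8.64 ± 4.40 and Adra1a at 6.56 ± 1.93 CPM per kb, and these 3 neighbours lay within their spread. Adrb1 at 3.47 ± 1.24 and Adora1 at 3.16 ± 0.954 CPM per kb also lay within their spread. Adra1d averaged 0.936 ± 0.293 and Adora2b 0.523 ± 0.224 CPM per kb. Adrb3, known best from adipocytes, had 0 to 12 counts per library, and no comparison of it was tested. The spread mixes 6 genotypes, and the first place in this order changed in 2 of them. Adora2a stood above Chrm2 in labelled Acadl KO / Acadvl wt hearts, at 11.97 ± 4.32 and 7.59 ± 1.24 CPM per kb (SD, n = 4), and in labelled Acadl KO / Acadvl Het hearts, at 12.5 ± 6.24 and 7.59 ± 2.00 CPM per kb (SD, n = 5). Of the receptors of these families outside the 9, Adra2b had 0.867 to 1.85 CPM, Chrm3 0.156 to 1.17 CPM and Adora3 0.0312 to 0.737 CPM.

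**Figure D1:**
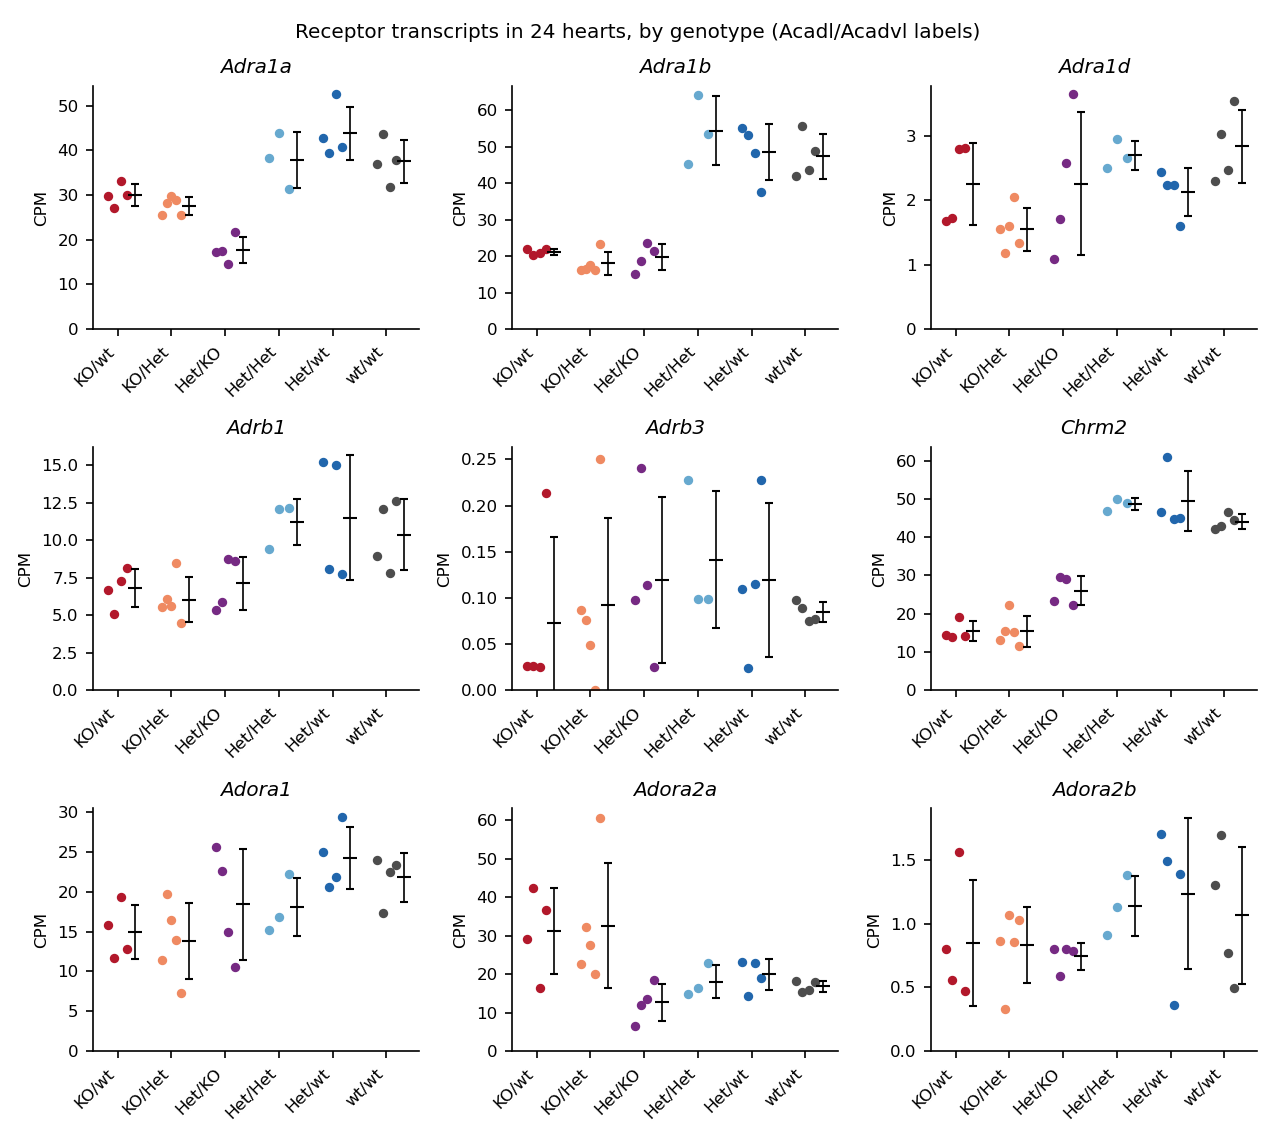
CPM of the 9 receptor transcripts in each of the 24 libraries, by genotype written as Acadl label over Acadvl label. Points are libraries and bars show mean and SD, cut at 0 where the SD is larger than the mean. Chrm2 stayed at 11.5 to 29.5 CPM in the 13 libraries with a KO label and at 42.3 to 61.1 CPM in the 11 others.

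In the plot of CPM by genotype, the 13 libraries with a KO label separated from the 11 others for Chrm2 and Adra1b and for no other receptor. The share of all genes that separate these libraries was not computed, so whether this is unusual cannot be said. Adra1b stood at 15.2 to 23.5 CPM in the libraries with a KO label and at 37.7 to 64.1 CPM in the others. Adra1a overlapped, at 14.5 to 33.2 CPM and 31.4 to 52.5 CPM, as did Adrb1, at 4.47 to 8.74 CPM and 7.74 to 15.2 CPM. Adora2a ranged more widely in the libraries with a KO label, from 6.63 to 60.5 CPM, than in the others, from 14.4 to 23.3 CPM. Per kb, the summed level of the 9 transcripts was 29.3 to 44.95 CPM in the libraries with a KO label and 56.1 to 68.5 CPM in the others. Chrm2 and Adra1b weighed most in the sum of those others. In wild-type hearts the sum averaged 58.8 CPM per kb, with 21.6 for Chrm2, 13.3 for Adra1b and 6.47 for Adora2a. In labelled Acadl KO / Acadvl wt hearts these means were 38.4, 7.59, 5.95 and 11.97. In Acadvl KO hearts they were 34.25, 12.8, 5.54 and 4.87. In bulk RNA, fewer cells of a type and less RNA per cell cannot be told apart.

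Because Chrm2 and Adra1b are the receptors whose libraries separated this way, the 250 bases before their annotated starts are printed, from the RefSeq table for GRCm38.p6. The table held windows for 5 of the 9 receptor genes. Capitals mark matches to 2 of the motifs searched, and each sequence runs 5′ to 3′ on the strand of the gene. Chrm2 lies on the plus strand of chromosome 6 (36388084 to 36524774, mm10) and its window is chr6:36387834-36388083. Adra1b lies on the minus strand of chromosome 11 (43774605 to 43901237) and has windows before 2 annotated starts, at chr11:43901238-43901487 and chr11:43836490-43836739.
Chrm2: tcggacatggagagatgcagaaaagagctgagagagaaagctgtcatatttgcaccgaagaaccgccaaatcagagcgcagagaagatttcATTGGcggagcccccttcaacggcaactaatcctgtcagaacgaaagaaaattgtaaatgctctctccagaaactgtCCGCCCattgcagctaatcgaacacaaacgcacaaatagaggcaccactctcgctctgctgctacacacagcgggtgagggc
Adra1b, outer start: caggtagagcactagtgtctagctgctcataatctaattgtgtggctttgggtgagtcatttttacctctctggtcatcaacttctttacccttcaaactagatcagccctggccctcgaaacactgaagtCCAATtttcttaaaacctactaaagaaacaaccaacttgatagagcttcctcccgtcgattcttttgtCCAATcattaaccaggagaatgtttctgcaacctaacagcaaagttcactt
Adra1b, inner start: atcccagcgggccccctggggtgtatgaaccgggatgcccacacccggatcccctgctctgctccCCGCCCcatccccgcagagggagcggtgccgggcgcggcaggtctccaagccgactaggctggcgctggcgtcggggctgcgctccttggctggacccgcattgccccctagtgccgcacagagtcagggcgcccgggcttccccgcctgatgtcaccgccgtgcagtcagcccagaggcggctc
Both strands were searched for the TATA box TATAAA, the box CCAAT, the GC box GGGCGG, the cAMP response element core TGACG, the C/EBP-ATF composite motif TGATGNAA, the GATA factor motif AGATAA and the E-box CACGTG. The Chrm2 window, 50% G or C, held 1 CCAAT box and 1 GC box, both on the opposite strand. The outer Adra1b window, 41.6% G or C, held 2 CCAAT boxes on the gene's strand, and the inner window, 72.8% G or C, held 1 GC box on the opposite strand. The printed matches do not overlap. Among 32851 windows of this length, with a median of 52.4% G or C, 33.8% held a CCAAT box and 32.7% a GC box. None of the other 5 motifs was found in these 3 windows, against 12.4% of all windows for the TATA box, 17.8% for the cAMP response element core, 3.5% for the C/EBP-ATF motif, 10% for the GATA motif and 6% for the E-box.

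Chrm2 encodes the M2 acetylcholine receptor, through which the vagus nerve slows the heart. Its level was 14.4, 13.9, 19.2 and 14.3 CPM in labelled Acadl KO / Acadvl wt hearts, against 42.3, 43.0, 46.5 and 44.5 CPM in wild type. Every labelled Acadl KO library thus lay below every wild-type library. The log2 change was -1.56 (edgeR adjusted p = 3.395e-07, SE 0.15). Of the 8 tested receptors 4 were called in this comparison, 1 higher and 3 lower, where 37.2% of all genes tested were called, 19.6% higher and 17.6% lower. Within RNA isolation batch 1 the change was -1.67 and within batch 2 it was -1.42 (edgeR adjusted p = 0.02183 and 0.0005129).

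With Acadvl Het in place of Acadvl wt, Chrm2 had 13.1, 15.4, 22.2, 15.2 and 11.5 CPM in labelled Acadl KO / Acadvl Het hearts. Acadl Het hearts had 46.9, 49.97 and 49.1 CPM with Acadvl Het, and 46.7, 61.1, 44.8 and 44.95 CPM with Acadvl wt. Set against Acadl Het over both Acadvl labels, the 9 labelled Acadl KO libraries lay below all 7 others, with a log2 change of -1.68 (edgeR adjusted p = 2.897e-10, SE 0.10). In this comparison 6 of the 8 receptors and 54.7% of all genes tested were called. The libraries of its sides did not overlap for 18.3% of all genes.

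Chrm2 also fell in Acadvl KO hearts. They held 23.2, 29.5, 29.0 and 22.4 CPM, and all 4 lay below their Acadvl wt controls, given above. The log2 change was -0.96 (edgeR adjusted p = 7.316e-05, SE 0.15), with -0.99 in batch 1 and -0.98 in batch 2. Here 3 of the 8 receptors were called, and 24.4% of all genes tested. Set directly against Acadvl KO, the labelled Acadl KO / Acadvl wt libraries were all lower, by a log2 of -0.75 (edgeR adjusted p = 0.00781, SE 0.15). This comparison called 4.43% of all genes tested, 1.77% higher and 2.66% lower, and 3 of the 8 receptors, 2 higher and 1 lower. Its sides did not overlap for 8.05% of all genes. Within batches the values were -0.66 and -0.78, with edgeR adjusted p of 0.3474 and 0.09067, and without the libraries above 10 CPM of Alb the change was -0.77 (edgeR adjusted p = 0.08404). Chrm2 shares 79 exon bases with 9330158H04Rik on the opposite strand, and reads were counted without strand. That partner had 122 to 625 counts, against 369 to 2505 for Chrm2.

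The comparison of labelled Acadl KO with wild type shares its KO libraries with the comparison against Acadl Het and the one against Acadvl KO, and the Acadl Het / Acadvl wt libraries serve as controls more than once. The values of a receptor in these comparisons are therefore given side by side and are not independent of each other.

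**Figure D2:**
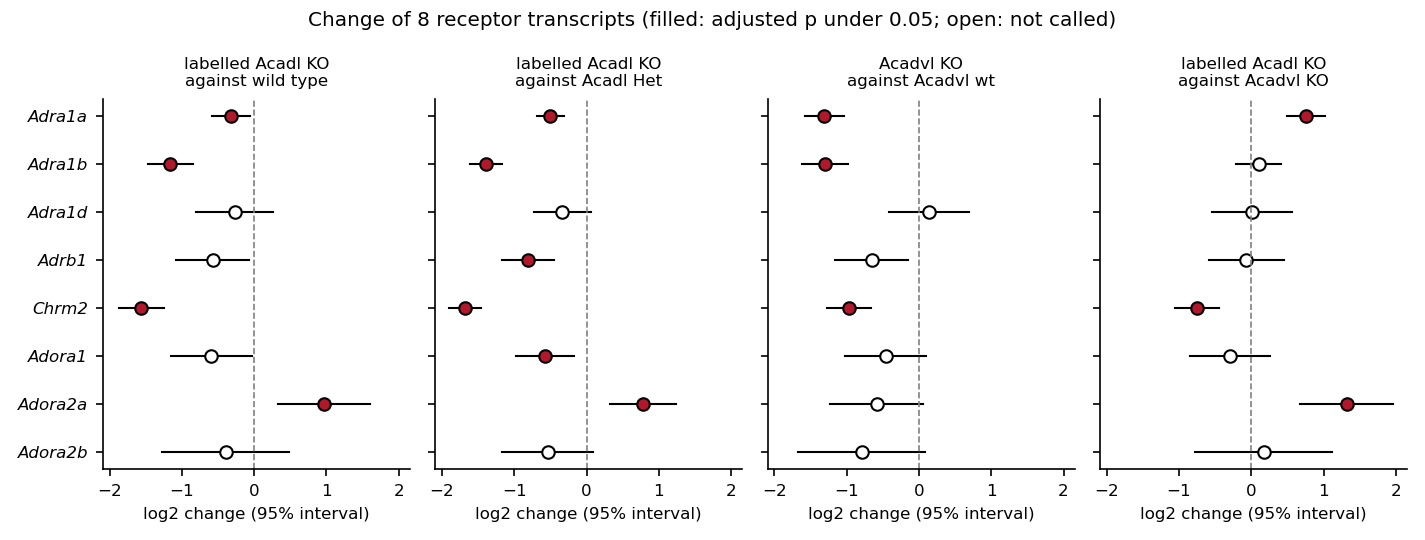
Log2 change with its 95% interval for the 8 tested receptors in the 4 comparisons that involve a KO label. Filled points passed an edgeR adjusted p of 0.05. Chrm2 is below 0 in each panel, and Adora2a is above 0 against wild type, Acadl Het and Acadvl KO at 0.97, 0.78 and 1.32.

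Adora1 encodes the other Gi-coupled receptor, which slows conduction when adenosine accumulates. It had 15.8, 11.7, 19.3 and 12.9 CPM in labelled Acadl KO / Acadvl wt hearts and 11.5, 19.8, 16.4, 14.0 and 7.25 CPM in labelled Acadl KO / Acadvl Het hearts. Acadvl KO hearts held 25.7, 22.7, 14.9 and 10.5 CPM, on both sides of the wild-type range. The levels were 15.3, 16.8 and 22.3 CPM in Acadl Het / Acadvl Het, 25.0, 20.7, 21.9 and 29.4 CPM in Acadl Het / Acadvl wt and 24.0, 17.3, 22.5 and 23.4 CPM in wild-type hearts. Libraries overlapped in every comparison of Adora1 with a KO label.

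Adora1 fell in labelled Acadl KO against Acadl Het hearts, by a log2 of -0.58 (edgeR adjusted p = 0.01449, SE 0.19). That call was lost without Acadl Het / Acadvl Het replicate 3, at -0.45 (edgeR adjusted p = 0.0546), and the change was -1.03 in batch 1 and -0.27 in batch 2 (edgeR adjusted p = 0.03988 and 0.2714). Against wild type the value was -0.60 (95% interval -1.15 to -0.04) with an edgeR adjusted p of 0.08356. For Acadvl KO it was -0.46 (interval -1.02 to 0.10, edgeR adjusted p = 0.2243). Adora1 shares 662 exon bases with Mybph on the opposite strand, which had 33 to 192 counts against 232 to 1546 for Adora1. The gene lies on chromosome 1, 67.3 Mb from Acadl.

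Of the Gq-coupled alpha1 receptors, Adra1b had the plainer pattern. It was 21.8, 20.2, 20.9 and 21.9 CPM in labelled Acadl KO / Acadvl wt hearts, 16.1, 16.6, 17.7, 16.3 and 23.5 CPM in labelled Acadl KO / Acadvl Het hearts and 15.2, 18.8, 23.5 and 21.5 CPM in Acadvl KO hearts. Acadl Het / Acadvl Het hearts had 45.3, 64.1 and 53.4 CPM, Acadl Het / Acadvl wt hearts 55.1, 53.1, 48.1 and 37.7 CPM, and wild-type hearts 41.9, 55.5, 43.5 and 48.7 CPM. All libraries with a KO label were low and none overlapped the others, a split for which no share of all genes was computed. Adra1b fell in labelled Acadl KO against wild-type hearts by a log2 of -1.16 (edgeR adjusted p = 8.212e-06, SE 0.15), a comparison whose sides did not overlap for 35.8% of all genes.

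The fall of Adra1b was -1.39 against Acadl Het (edgeR adjusted p = 3.492e-09, SE 0.11). It was -1.30 in Acadvl KO against Acadvl wt hearts (edgeR adjusted p = 5.442e-06, SE 0.15), where 23.5% of all genes had sides that did not overlap. No difference between labelled Acadl KO and Acadvl KO was called for Adra1b, with a log2 difference of 0.10 and an interval of -0.21 to 0.42 (edgeR adjusted p = 0.7192). Within batch 1, where the KO arm had 1 library, the change against wild type was -1.07 and that of Acadvl KO was -0.98, neither called (edgeR adjusted p = 0.1111 and 0.1234). Within batch 2 the same changes were -1.21 and -1.50, both called (edgeR adjusted p = 0.0005121 and 0.0003035). Adra1b lies 26.1 Mb from Acadvl on chromosome 11.

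Adra1a, the other abundant alpha1 receptor, was lowest in Acadvl KO hearts. Those hearts had 17.3, 17.5, 14.5 and 21.6 CPM, against 42.7, 39.3, 52.5 and 40.8 CPM in their Acadvl wt controls, so that every library was below every control. The fall was -1.31 on the log2 scale (edgeR adjusted p = 7.392e-07, SE 0.13), with -1.09 in batch 1 and -1.32 in batch 2 (edgeR adjusted p = 0.05658 and 0.0001035). Labelled Acadl KO hearts held intermediate levels, 29.7, 27.0, 33.2 and 29.9 CPM with Acadvl wt and 25.5, 28.2, 29.8, 28.8 and 25.5 CPM with Acadvl Het. Set against Acadvl KO, the 4 labelled Acadl KO / Acadvl wt libraries were all higher, by a log2 of 0.76 (edgeR adjusted p = 0.002545, SE 0.13). That difference was 0.46 in batch 1 and 0.87 in batch 2 (edgeR adjusted p = 0.5838 and 0.00462), and 0.73 without the libraries above 10 CPM of Alb (edgeR adjusted p = 0.05171).

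The remaining hearts had 38.2, 43.8 and 31.4 CPM of Adra1a with Acadl Het / Acadvl Het, and 36.9, 43.6, 31.7 and 37.8 CPM in wild type. Labelled Acadl KO / Acadvl wt overlapped wild type, and the change of -0.32 (SE 0.12) was just past the threshold, with an edgeR adjusted p of 0.04493. The call was lost in 14 of the 24 fits that left out 1 library, with a value as small as -0.22 without wild-type replicate 2, and without the libraries above 10 CPM of Alb (-0.34, edgeR adjusted p = 0.1158). Against Acadl Het the fall was -0.50 (edgeR adjusted p = 7.53e-05, SE 0.09), with overlap, and within batches it was -0.42 and -0.50. Adra1a lies on chromosome 14, 66635251 to 66771168 (mm10).

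Adra1d, the third alpha1 receptor, stayed between 1.10 and 3.65 CPM, from 43 to 185 counts. No comparison called it. Its log2 changes were -0.27 (interval -0.80 to 0.26) against wild type and 0.14 (interval -0.41 to 0.69) for Acadvl KO. All 3 Acadl Het / Acadvl Het libraries, at 2.504 to 2.95 CPM, lay above the 4 Acadl Het / Acadvl wt libraries, at 1.60 to 2.44 CPM, yet that change of 0.40 had an edgeR adjusted p of 0.9999. 

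The balance within the alpha1 group followed these changes. Adra1a made up 47.2, 46.5, 49.2 and 45.6% of the summed alpha1 level per kb in labelled Acadl KO / Acadvl wt hearts. Its share in labelled Acadl KO / Acadvl Het hearts was 50.3, 52.9, 52.1, 52.1 and 42.3%. Acadvl KO hearts had 36.4 ± 6.26% (SD, n = 4), Acadl Het / Acadvl Het hearts 32.3 ± 3.88% (n = 3), Acadl Het / Acadvl wt hearts 38.5 ± 4.91% (n = 4) and wild-type hearts 34.7 ± 1.87% (n = 4). The 4 labelled Acadl KO / Acadvl wt libraries were above all 4 wild-type libraries, which reached 37.3%. The shares are a description and were not tested.

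**Figure D3:**
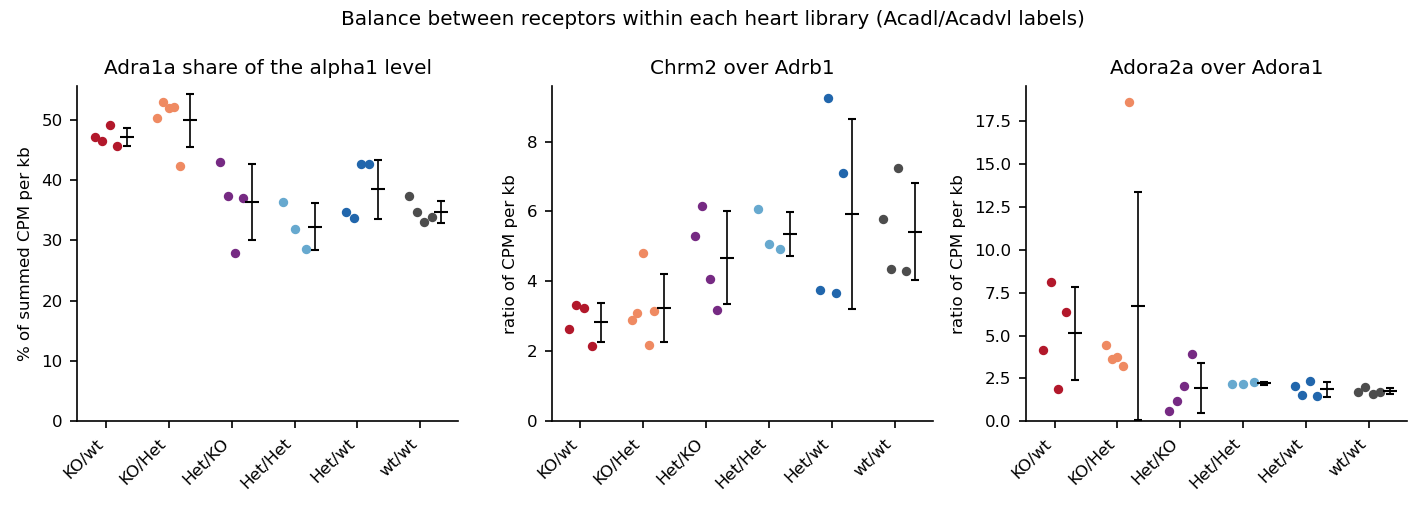
Balance between receptors within each library, by genotype written as Acadl label over Acadvl label, with points for libraries and bars for mean and SD. The share of Adra1a in the alpha1 level (left) was 45.6 to 49.2% in labelled Acadl KO / Acadvl wt hearts and 33.02 to 37.3% in wild type. The middle and right panels show ratios of CPM per kb.

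Adrb1 encodes the main beta-adrenergic receptor of cardiomyocytes, which raises heart rate and force. It had 6.71, 5.11, 7.27 and 8.15 CPM in labelled Acadl KO / Acadvl wt hearts, 5.52, 6.07, 5.63, 8.49 and 4.47 CPM in labelled Acadl KO / Acadvl Het hearts and 5.36, 5.85, 8.74 and 8.59 CPM in Acadvl KO hearts. The others had 9.44, 12.1 and 12.2 CPM with Acadl Het / Acadvl Het, 15.2, 8.10, 15.01 and 7.74 CPM with Acadl Het / Acadvl wt and 8.95, 12.1, 7.85 and 12.7 CPM in wild type. The Acadl Het / Acadvl wt libraries fell into a high and a low pair, and Acadvl KO overlapped them. Labelled Acadl KO / Acadvl wt overlapped wild type. Labelled Acadl KO / Acadvl Het lay below Acadl Het / Acadvl Het without overlap, a pair outside the 7 comparisons for which no share of all genes was computed.

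Adrb1 fell in labelled Acadl KO against Acadl Het hearts, by a log2 of -0.81 (edgeR adjusted p = 0.0005001, SE 0.17), with -0.69 in batch 1 and -0.88 in batch 2 (edgeR adjusted p = 0.2427 and 0.002271). The changes against wild type, -0.58 (interval -1.08 to -0.07), and in Acadvl KO hearts, -0.65 (interval -1.16 to -0.15), missed the threshold with edgeR adjusted p of 0.06524 and 0.05117. Leaving out wild-type replicate 3 gave -0.70 for the comparison with wild type (edgeR adjusted p = 0.0335). Leaving out any of Acadl Het / Acadvl wt replicates 2 and 4, Acadvl KO replicate 3 or labelled Acadl KO / Acadvl Het replicate 4 brought the Acadvl KO change past the threshold, at -0.67 to -0.79. Between labelled Acadl KO and Acadvl KO the difference was -0.07 (interval -0.58 to 0.45). Per kb, the ratio of Chrm2 to Adrb1 averaged 2.83 ± 0.552 in labelled Acadl KO / Acadvl wt hearts and 5.42 ± 1.40 in wild type (SD, n = 4 each). It was 4.68 ± 1.32 in Acadvl KO hearts and 5.94 ± 2.72 in their Acadvl wt controls (SD, n = 4 each).

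Adora2a was the receptor that rose. It encodes a Gs-coupled adenosine receptor, known for widening coronary vessels and damping inflammation. Labelled Acadl KO / Acadvl wt hearts had 29.2, 42.4, 16.4 and 36.6 CPM, against 18.2, 15.3, 15.8 and 18.01 CPM in wild type, and only replicate 3 lay within the wild-type range. The log2 change was 0.97 (edgeR adjusted p = 0.01643, SE 0.30), and it was 0.75 without labelled Acadl KO / Acadvl wt replicate 2 (edgeR adjusted p = 0.06857). Within batches the change was 1.12 and 0.81 (edgeR adjusted p = 0.3475 and 0.1154), and without the libraries above 10 CPM of Alb it was 0.95 (edgeR adjusted p = 0.05984).

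With Acadvl Het, the labelled Acadl KO hearts held 22.8, 32.2, 27.5, 20.1 and 60.5 CPM of Adora2a, and replicate 5 stood highest of all 24 libraries. Acadl Het hearts had 14.8, 16.4 and 23.0 CPM with Acadvl Het and 23.3, 14.4, 22.9 and 19.1 CPM with Acadvl wt. The rise against Acadl Het was 0.78 (edgeR adjusted p = 0.005109, SE 0.22), with overlap, and 0.81 and 0.74 within batches (edgeR adjusted p = 0.2052 and 0.03559). Of all genes tested, 26.7% were called higher in that comparison, and Adora2a was the sole receptor among them, while 27.9% of all genes and 5 receptors were called lower.

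Adora2a was not called in Acadvl KO hearts. They had 6.63, 12.0, 13.6 and 18.5 CPM, partly below their Acadvl wt controls, and the change of -0.58 (interval -1.23 to 0.06) missed the threshold (edgeR adjusted p = 0.1755). Set directly against Acadvl KO, labelled Acadl KO / Acadvl wt hearts were higher by a log2 of 1.32 (edgeR adjusted p = 0.02181, SE 0.31), with overlap through labelled Acadl KO / Acadvl wt replicate 3. That call was lost without labelled Acadl KO / Acadvl wt replicate 1 (1.30, edgeR adjusted p = 0.05824) or replicate 2 (1.06, edgeR adjusted p = 0.1031). It was also lost within both batches (0.98 and 1.45) and without the libraries above 10 CPM of Alb (1.31, edgeR adjusted p = 0.1175). The ratio of Adora2a to Adora1 per kb was 4.14, 8.10, 1.89 and 6.37 in labelled Acadl KO / Acadvl wt hearts, 0.577, 1.18, 2.05 and 3.92 in Acadvl KO hearts and 1.70, 1.97, 1.57 and 1.72 in wild type.

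Adora2b, a Gs-coupled receptor of lower affinity for adenosine, had 13 to 76 counts per library and 0.327 to 1.70 CPM. No comparison called it, with log2 changes of -0.40 against wild type (interval -1.27 to 0.48), -0.54 against Acadl Het (interval -1.17 to 0.09) and -0.79 for Acadvl KO (interval -1.67 to 0.09). Leaving out labelled Acadl KO / Acadvl wt replicate 3 or Acadl Het / Acadvl wt replicate 3 called it lower against Acadl Het, at -0.75 and -0.67. Adora2b lies 7.7 Mb from Acadvl.

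Over the 8 tested receptors, the median log2 change was -0.49 against wild type, -0.56 against Acadl Het and -0.72 for Acadvl KO, while the medians of all genes tested were -0.02, -0.03 and 0.02. Between labelled Acadl KO and Acadvl KO the receptor median was 0.06 and that of all genes 0.01. No receptor was called on the loss of a single copy: in Acadl Het against wild-type hearts the edgeR adjusted p was 0.9997 for each of the 8 receptors, and in Acadvl Het against Acadvl wt hearts it was 0.9999. Those comparisons called 0% and 0.00633% of all genes tested, and for 3.28% and 3.83% of all genes their sides did not overlap. With an unadjusted edgeR p under 0.05 they had 541 and 448 genes. DESeq2 called 1 and 13 genes over the whole table.

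The interaction, the change with Acadvl Het in labelled Acadl KO hearts minus that in Acadl Het hearts, called 0 of the 8 receptors and 0% of all genes tested by edgeR. An unadjusted edgeR p under 0.05 was found for 817 genes, where 5% of all tests is 790, and DESeq2 called 100 genes. The lowest unadjusted p among the receptors belonged to Adra1d, at 0.01809 with a log2 difference of -0.97 (interval -1.78 to -0.17, edgeR adjusted p = 0.7855).

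The genes through which these receptors act were taken from fixed lists. Each count is to be read against the share of all genes tested that was called, 37.2% against wild type, 54.7% against Acadl Het and 24.4% in Acadvl KO hearts. Of the 6 channels gated by muscarinic receptors or cyclic AMP, 0 rose and 3 fell in labelled Acadl KO against wild type, 0 and 4 against Acadl Het, and 0 and 3 in Acadvl KO hearts, or 50%, 66.7% and 50% of the list. Its median log2 changes were -1.24, -1.38 and -1.27. Kcnj3 and Kcnj5 encode the subunits of the potassium channel that Gi beta-gamma opens after Chrm2 or Adora1 is activated. Kcnj3 had 19.9, 20.0, 32.8 and 22.1 CPM in labelled Acadl KO / Acadvl wt hearts, against 69.5, 85.0, 50.7 and 61.3 CPM in wild type. Kcnj5 had 17.3, 10.4, 28.8 and 20.7 CPM, against 64.6, 74.5, 66.97 and 76.2 CPM in wild type. The sides overlapped for neither gene, and the falls were -1.50 (edgeR adjusted p = 3.218e-05, SE 0.22) for Kcnj3 and -1.87 (edgeR adjusted p = 0.0001092, SE 0.30) for Kcnj5.

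In Acadvl KO hearts Kcnj3 averaged 21.7 ± 6.17 CPM, against 72.7 ± 10.5 CPM in their Acadvl wt controls (SD, n = 4 each), and Kcnj5 averaged 26.0 ± 11.2 CPM against 62.3 ± 11.8 CPM. The falls were -1.75 (edgeR adjusted p = 1.358e-05, SE 0.22) and -1.26 (edgeR adjusted p = 0.00417, SE 0.30), and again no library overlapped. Hcn4, a pacemaker channel opened by cyclic AMP, fell by -0.98 against wild type (edgeR adjusted p = 0.002565, SE 0.23).

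Kcnj3, Hcn4 and Chrm2 are richest in the atria and the conduction system, so atrial markers are given beside them. Summed over 10 atrial markers, including Kcnj3, the level was 259 to 372 CPM in labelled Acadl KO / Acadvl wt hearts and 406 to 508 CPM in wild type, and 532 to 711 CPM in Acadvl KO against 336 to 706 CPM in Acadvl wt hearts. Without Kcnj3 it was 236 to 352 CPM and 345 to 458 CPM for the labelled Acadl KO and wild type, and 502 to 687 CPM and 265 to 646 CPM for Acadvl KO and Acadvl wt. Most of the sum was Nppa, a natriuretic peptide gene that also responds to cardiac stress, and the 2055 CPM of labelled Acadl KO / Acadvl Het replicate 2 held 1922 CPM of it. Without Nppa and Kcnj3 the other 8 markers summed to 80.9 to 157 CPM in labelled Acadl KO / Acadvl wt and 99.1 to 184 CPM in wild-type hearts, and to 75.7 to 225 CPM in Acadvl KO and 114 to 307 CPM in Acadvl wt hearts, with overlap in both comparisons. Of the 10 atrial markers, 2 fell against wild type, 5 against Acadl Het and 2 in Acadvl KO hearts, and 0 rose, with median log2 changes of -0.30, -1.14 and -0.70. The part of atrial tissue in these results was not tested.

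**Figure D4:**
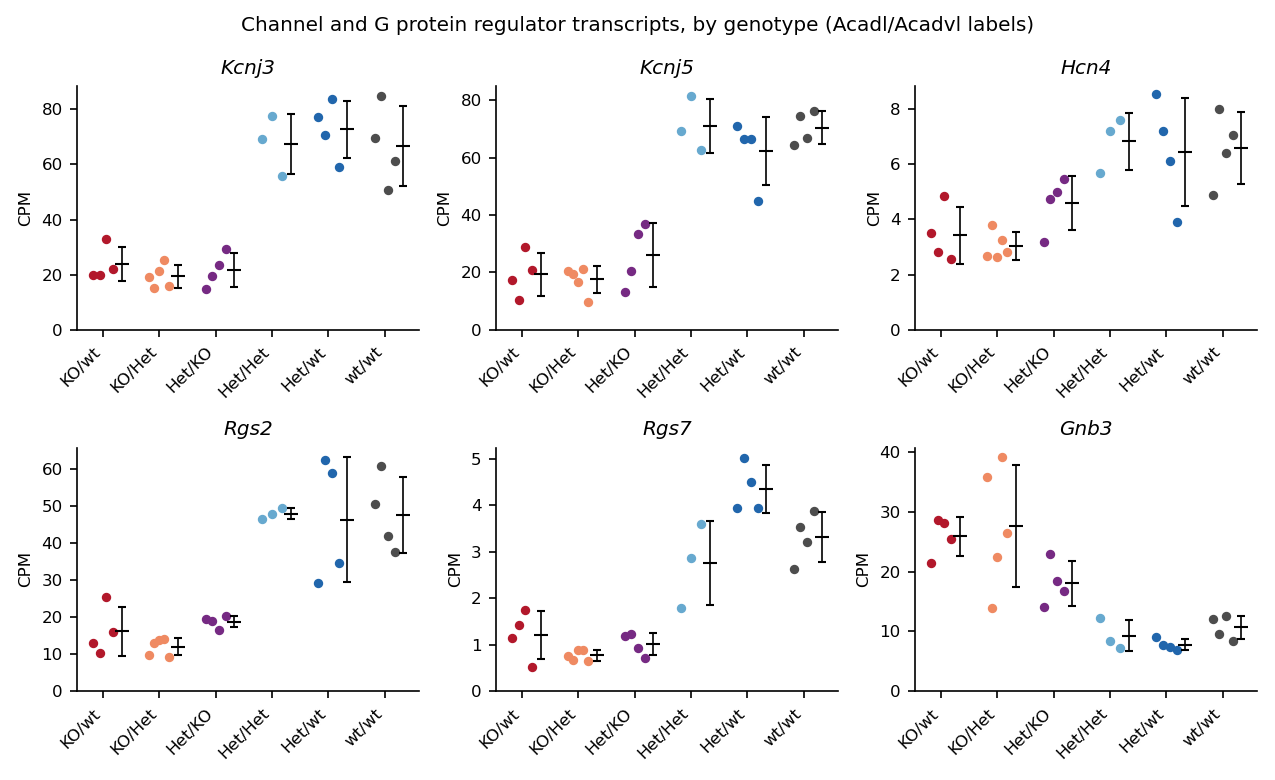
CPM of channel and G protein regulator transcripts in each library, by genotype written as Acadl label over Acadvl label, with points for libraries and bars for mean and SD. Kcnj3 reached at most 32.8 CPM in labelled Acadl KO / Acadvl wt hearts, against at least 50.7 CPM in wild type, and Gnb3 was higher in each KO genotype than in its controls.

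Regulators of G protein signalling speed the shutdown of the G protein. Of 15 tested, 0 rose and 6 fell against wild type, 1 rose and 7 fell against Acadl Het, and 0 rose and 4 fell in Acadvl KO hearts. These shares, 40%, 53.3% and 26.7%, stood near those of all genes. Rgs2, which acts on Gq, had 13.1, 10.3, 25.5 and 16.0 CPM in labelled Acadl KO / Acadvl wt hearts, against 50.5, 60.9, 41.8 and 37.5 CPM in wild type, a fall of -1.56 (edgeR adjusted p = 0.0001045, SE 0.25) without overlap. In Acadvl KO hearts it fell by -1.32 (edgeR adjusted p = 0.0008438, SE 0.25). Rgs7 fell by -1.49 against wild type (edgeR adjusted p = 0.0001392, SE 0.25) and by -2.11 in Acadvl KO hearts (edgeR adjusted p = 7.483e-06, SE 0.25), at levels of 0.521 to 5.02 CPM. Rgs4, which acts on Gi and Gq, fell by -0.70 in Acadvl KO hearts (edgeR adjusted p = 0.002611, SE 0.16).

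Of 23 G protein subunits, 3 rose and 5 fell against wild type, 3 rose and 6 fell against Acadl Het, and 4 rose and 2 fell in Acadvl KO hearts. The shares called, 34.8%, 39.1% and 26.1%, were near or below those of all genes. Their median log2 changes, from -0.06 to 0.07, stood near 0. Gnb3, a beta subunit, was 25.9 ± 3.27 CPM in labelled Acadl KO / Acadvl wt hearts and 10.7 ± 1.95 CPM in wild type (SD, n = 4 each), a rise of 1.28 (edgeR adjusted p = 0.0004874, SE 0.25) without overlap. It rose by 1.21 in Acadvl KO hearts (edgeR adjusted p = 0.001556, SE 0.25). Gnas, the stimulatory alpha subunit that Gs-coupled receptors use, was the most abundant of the list. It averaged 840 ± 17.8 CPM in labelled Acadl KO / Acadvl wt and 933 ± 14.8 CPM in wild-type hearts, and 780 ± 25.0 CPM in Acadvl KO and 935 ± 25.3 CPM in Acadvl wt hearts (SD, n = 4 each). No library overlapped in either comparison, and the falls were -0.14 (edgeR adjusted p = 0.03292, SE 0.05) and -0.25 (edgeR adjusted p = 0.0009902, SE 0.05). Between labelled Acadl KO and Acadvl KO hearts the Gnas difference of 0.11 was not called (edgeR adjusted p = 0.2044).

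The lists of signalling genes described from here on held 8.33% to 75% called. Adenylyl cyclases, at 22.2%, 44.4% and 11.1%, were below the shares of all genes. So were phospholipase C and protein kinase C genes, at 26.7%, 46.7% and 20%. Phosphodiesterases, at 29.4%, 58.8% and 23.5%, were below them other than against Acadl Het. Among 9 adenylyl cyclases, which make cyclic AMP, 0 rose and 2 fell against wild type, 0 and 4 against Acadl Het, and 0 and 1 in Acadvl KO hearts. Adcy9 fell by -0.46 (edgeR adjusted p = 0.0009627, SE 0.10) and -0.44 (edgeR adjusted p = 0.002544, SE 0.10) in the labelled Acadl KO and Acadvl KO comparisons. Adcy6, more abundant at 412 ± 17.7 CPM in labelled Acadl KO / Acadvl wt and 439 ± 42.7 CPM in wild-type hearts, was not called. Of 17 phosphodiesterases, which break cyclic nucleotides down, 1 rose and 4 fell against wild type, 4 rose and 6 fell against Acadl Het, and 2 rose and 2 fell in Acadvl KO hearts. Pde8a rose by 0.62 and Pde7b fell by -0.70 against wild type, and the same genes changed by 0.74 and -0.70 in Acadvl KO hearts, each called.

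Protein kinase A subunits and anchors had 3 of 14 higher and 5 lower against wild type, 3 and 6 against Acadl Het, and 1 and 4 in Acadvl KO hearts, or 57.1%, 64.3% and 35.7% of the list. Akap6, which anchors the kinase at the nuclear envelope, fell by -0.92 (edgeR adjusted p = 0.0005069, SE 0.18) against wild type and by -0.93 (edgeR adjusted p = 0.0008038, SE 0.18) in Acadvl KO hearts. Akap1, a mitochondrial anchor, rose by 0.77 (edgeR adjusted p = 6.008e-05, SE 0.12) and 0.49 (edgeR adjusted p = 0.004996, SE 0.12). Receptor kinases and arrestins, which silence active receptors, had 1 of 7 higher and 1 lower against wild type, 1 and 4 against Acadl Het, and 1 and 1 in Acadvl KO hearts. These were 28.6%, 71.4% and 28.6% of the list. Adrbk2, a receptor kinase, rose by 0.48 and 0.50, and Grk5 fell by -0.61 against Acadl Het (edgeR adjusted p = 0.0001523, SE 0.11).

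Downstream, phospholipase C and protein kinase C genes had 2 of 15 higher and 2 lower against wild type, 4 and 3 against Acadl Het, and 3 and 0 in Acadvl KO hearts. Of 10 protein kinase A substrates and phosphatase inhibitors, 1 rose and 1 fell, 2 rose and 4 fell, and 1 rose and 3 fell in the same order. These were 20%, 60% and 40% of the list. Pln, whose product restrains the calcium pump until it is phosphorylated, fell by -0.46 in Acadvl KO hearts (edgeR adjusted p = 0.00136, SE 0.10). Among 12 transcripts known to respond to cyclic AMP and CREB, 4 rose and 0 fell against wild type, 5 rose and 3 fell against Acadl Het, and 2 rose and 1 fell in Acadvl KO hearts. The shares called were 33.3%, 66.7% and 25%, where all genes had 37.2%, 54.7% and 24.4%. Against wild type and in Acadvl KO hearts they were thus near those of all genes. Atf3 and Sik1, which also respond to other stimuli, rose by 3.08 and 1.87 against wild type and by 2.14 and 1.39 in Acadvl KO hearts, each called.

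For the ligands, genes of adenosine production and clearance had 3 of 12 higher and 4 lower against wild type, 4 and 5 against Acadl Het, and 0 and 1 in Acadvl KO hearts. These were 58.3%, 75% and 8.33% of the list. Nt5e, the ectoenzyme that makes adenosine from AMP, fell by -0.94 against wild type (edgeR adjusted p = 0.01242, SE 0.28), with overlap. Slc29a1, an equilibrative nucleoside transporter, was 40.6 ± 5.74 CPM in labelled Acadl KO hearts (SD, n = 9) and 62.3 ± 4.96 CPM in Acadl Het hearts (n = 7), a fall of -0.61 (edgeR adjusted p = 2.243e-06, SE 0.08). Slc29a2, of the same family, rose by 0.73 against wild type (edgeR adjusted p = 0.0004279, SE 0.14). For Acadvl KO the changes of Slc29a1 and Slc29a2 were -0.25 and 0.37, not called (edgeR adjusted p = 0.1135 and 0.06136).

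Of 11 tested genes of catecholamine and acetylcholine handling, 0 rose and 5 fell against wild type, 0 and 8 against Acadl Het, and 0 and 3 in Acadvl KO hearts. The shares called were 45.5%, 72.7% and 27.3%, the last of them near that of all genes. Ache, which breaks acetylcholine down, was 1.63 ± 0.176 CPM in labelled Acadl KO / Acadvl wt hearts and 3.81 ± 0.467 CPM in wild type (SD, n = 4 each), a fall of -1.21 (edgeR adjusted p = 0.001054, SE 0.26). Ddc, the decarboxylase of catecholamine synthesis, fell by -1.90 in Acadvl KO hearts (edgeR adjusted p = 0.00549, SE 0.47). Nerve and Schwann markers summed to 17.7 to 19.7 CPM in labelled Acadl KO / Acadvl wt hearts and 23.4 to 26.7 CPM in wild type. In Acadvl KO hearts the sum was 20.6 to 33.4 CPM, against 20.5 to 23.2 CPM in Acadvl wt hearts. Of 8 tested nerve markers, 3 fell against wild type, 4 against Acadl Het and 2 in Acadvl KO hearts, while Th, which makes the precursor of catecholamines, had 0 to 2 counts per library. The part of nerve tissue in these results was not tested.

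Between labelled Acadl KO and Acadvl KO hearts, 7 genes of these lists were called, where 4.43% of all genes tested were called. The shares were 25% of 12 adenosine genes and 9.09% of 11 genes of catecholamine and acetylcholine handling. They were 6.67% of the 15 regulators of G protein signalling, 6.67% of the 15 phospholipase C and protein kinase C genes and 5.88% of 17 phosphodiesterases. Each of the other lists had 0%. Pde1a, a phosphodiesterase, was lower at -0.43, Prkcz, a protein kinase C isoform, at -0.58, Ada, which deaminates adenosine, at -0.81, and Slc29a1 at -0.40. Adk, which phosphorylates adenosine, was higher at 0.35 and Maob, a monoamine oxidase, at 0.34. The last was Rgs14, a regulator of G protein signalling, which was lower, had a mean under 1 CPM and is named here after its values were seen. Each of the 6 named calls was lost in some fit that left out 1 library.

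Within RNA isolation batch 1 alone, with 1 or 2 libraries a genotype, the calls of the signalling genes named above, Gnas not among those recomputed, against wild type or in Acadvl KO hearts were lost, other than those of Rgs7 and Atf3. For Kcnj3 the batch 1 values were -1.33 against wild type and -1.28 in Acadvl KO hearts (edgeR adjusted p = 0.12 and 0.121), and for Kcnj5 they were -1.78 and -0.58 (edgeR adjusted p = 0.1241 and 0.5564). Within batch 2 the calls of Adcy9, Nt5e and, in Acadvl KO hearts, of Akap1 and Ddc were lost.

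The profile of each called receptor over the 24 libraries was set against 12455 other genes, by the root mean square difference of log2 CPM about each gene's own mean. This is a description, and the libraries share genotype and batch. Adra1b, which itself varied by 0.69, was nearest to Camk2a (0.20), a calcium-dependent protein kinase, then to Cers4 (0.23), a ceramide synthase, and Klhl13 (0.25). Camk2a had 22.1, 19.5, 29.2 and 22.6 CPM in labelled Acadl KO / Acadvl wt hearts, against 56.9, 61.5, 53.9 and 57.7 CPM in wild type. Chrm2, which varied by 0.76, was nearest to Ehbp1 (0.22), Klhl13 (0.25) and Dpysl5 (0.27). Adra1a was nearest to Wbscr17 (0.22), Rps6ka5 (0.22) and Hils1 (0.24).

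Adrb1 was nearest to Tcf21 (0.20), a transcription factor that marks fibroblasts, then to Bcl2l12 (0.21) and Pcdh18 (0.22). Tcf21 had 4.66, 3.497, 5.10 and 5.90 CPM in labelled Acadl KO / Acadvl wt hearts, against 6.30, 6.49, 5.41 and 7.57 CPM in wild type. Fibroblast markers summed to 2462 to 2939 CPM and 2448 to 2873 CPM in the same hearts, and 0 of 10 were called against wild type and 4 were lower against Acadl Het. Most of this sum was Gsn, with a mean of 1621 CPM over the 24 libraries, and Dcn, with 521 CPM. Tcf21, with a mean of 5.725 CPM, has little weight in it. Adora1 was nearest to Piwil2 (0.25) and Ypel3 (0.26). Adora2a was nearest to Fam212a (0.30), Kdr (0.37), the endothelial receptor for vascular growth factor, and Slfn5 (0.39), at larger distances than the other receptors had. Endothelial markers summed to 1520 to 1956 CPM in labelled Acadl KO / Acadvl wt hearts, 1641 to 2142 CPM in labelled Acadl KO / Acadvl Het hearts, 1484 to 1874 CPM in Acadvl KO hearts, 1370 to 1817 CPM in Acadl Het / Acadvl Het hearts, 1492 to 1723 CPM in Acadl Het / Acadvl wt hearts and 1634 to 1843 CPM in wild type. Of the 10 markers, 1 was higher and 0 lower against wild type, and 3 were higher and 1 lower against Acadl Het. Labelled Acadl KO / Acadvl Het replicate 5 held both the highest endothelial sum and the highest Adora2a of the 24 libraries, and labelled Acadl KO / Acadvl wt replicate 3 the lowest of both in its genotype. Acadl Het / Acadvl wt replicate 2 also held the lowest of both in its genotype, 14.4 CPM of Adora2a and an endothelial sum of 1492 CPM. Acadl Het / Acadvl Het replicate 3 held the highest of both in its genotype, 23.0 and 1817 CPM. In wild-type and Acadl Het / Acadvl KO hearts no library held the lowest or the highest of both. Acadl Het / Acadvl KO replicate 1 had the lowest Adora2a of the 24 libraries, 6.63 CPM, with the highest endothelial sum of its genotype, 1874 CPM. Macrophage and leukocyte markers, from cells that also carry Adora2a, summed to 188 to 239 CPM in labelled Acadl KO / Acadvl wt, 238 to 427 CPM in Acadvl KO and 217 to 264 CPM in Acadvl wt hearts. Of 9 such markers, 2 were higher in Acadvl KO than in Acadvl wt hearts, and 2 were lower in labelled Acadl KO than in Acadvl KO hearts, with a median log2 of -0.71. The parts of fibroblasts, endothelium and leukocytes in these results were not tested.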

How the data were processed

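The authors deposited raw counts of reads for each gene symbol in each library. Per the file headers, featureCounts 1.5.2 counted reads over exons, unstranded, and gave a read to every gene it overlapped. STAR 2.5.1b and featureCounts 1.5.3, with mm10 and GRCm38 as builds, are named in the submitters' processing notes. Positions are those of the count files (mm10), from 1.

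The counts were fitted with edgeR 4.0.16 under R 4.3.3: filterByExpr, TMM scaling and 1 quasi-likelihood fit of all 24 libraries on genotype plus RNA isolation batch (17 residual degrees of freedom before moderation). Two-sided tests were adjusted by the Benjamini-Hochberg method over 15804 genes in each of 7 comparisons, with a threshold of 0.05. Alternatives used DESeq2 1.42.0, limma 3.58.1 (voom) and other filters, scalings and sets of libraries. Scripts were tested on simulated counts. For library pairs within a genotype, chi-square over its degrees of freedom was 14.9 to 527.7, above sampling noise. Intervals are 95%, and counting error alone is small beside the spread between libraries except below 100 counts.

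The receptors and gene lists were chosen with earlier results of these data known. From each pathway list the rule took up to 3 called genes with the largest change and a mean of at least 1 CPM in each comparison with a KO label, or the most abundant gene where none was called. Among these, the genes named in the text were picked after their values were seen, mostly those whose call held in every fit that left out 1 library, and some are given in a comparison for which the rule did not take them. Replicates were numbered in accession order. Some genes the rule takes are not reported here.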

Additional observations from a re-analysis of the deposited data

Results flagged for a closer look

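Of 45 sets of values of 1 receptor in 1 genotype of 4 or 5 libraries, 6 held a library whose gap to the nearest other was large for the range of the set, and chance gives about 1 in 20. Chrm2 stood at 19.2 CPM in labelled Acadl KO / Acadvl wt replicate 3, with the others at 13.9 to 14.4 CPM, and at 61.1 CPM in Acadl Het / Acadvl wt replicate 2, with the others at 44.8 to 46.7 CPM. Adra1b stood at 23.5 CPM in labelled Acadl KO / Acadvl Het replicate 5, with the others at 16.1 to 17.7 CPM, and this library also held the highest Adora2a. Adora2b was low at 0.327 CPM in labelled Acadl KO / Acadvl Het replicate 2 (others 0.859 to 1.07 CPM) and at 0.588 CPM in Acadl Het / Acadvl KO replicate 2 (others 0.786 to 0.804 CPM). Adrb3 had 0.213 CPM in labelled Acadl KO / Acadvl wt replicate 4, with the others at 0.0252 to 0.0266 CPM, on 9 counts against 1 in each.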

How the results depend on the processing

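Of 16 called receptor results, 502 of 544 values under the alternatives kept their call and direction, 42 lost the call and 0 reversed. Counts of receptors called changed from 4 to 1 in batch 1 and 2 without the libraries above 10 CPM of Alb (labelled Acadl KO against wild type), from 6 to 3 in batch 1 (against Acadl Het), from 3 to 1 in batch 1 (Acadvl KO), and from 3 to 1 with only the libraries compared, 0 in batch 1, 1 in batch 2 and 0 without the Alb libraries (labelled Acadl KO against Acadvl KO). Leaving out 1 library gave 2 to 5, 5 to 7, 3 to 4 and 2 to 3 in this order, and 0 to 0 for the other 3 comparisons.

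All genes called went from 5874 to 86 in batch 1 and 3871 without the Alb libraries (range 4642 to 6070 leaving out 1), from 8639 to 2112 in batch 1 (7848 to 8757), from 3853 to 1984 with only the libraries compared and 208 in batch 1 (2774 to 3988), and from 700 to 1225 with DESeq2, 46, 5 in batch 1, 54 in batch 2 and 77 without the Alb libraries (131 without labelled Acadl KO / Acadvl wt replicate 2 to 999 without replicate 3). Acadl Het against wild type went from 0 to 1 with DESeq2 (0 to 1). Acadvl Het went from 1 to 13 with DESeq2, 65 without a batch term and 0 in each batch or with only the libraries compared (0 to 122, the highest without Acadl Het / Acadvl Het replicate 2). The interaction went from 0 to 100 with DESeq2 and 45 without a batch term (0 to 92, the highest without the same replicate). Smaller sets have fewer samples; other causes were not tested.

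Of 3672 values of called signalling genes, 3356 kept call and direction, 315 lost the call and 1 reversed, Nt5c1a. The other reversals were in results not called. In batch 1 the log2 values were: Nt5c1a 0.006 for Acadvl KO; Adra1d -0.38, Adora1 0.28 and Adora2b -0.73 between the KO labels; Adra1b -0.10 and Chrm2 -0.019 for Acadl Het; Adrb1 0.093, Chrm2 0.12, Adora2a 0.12 and Adora2b 0.65 for Acadvl Het; Chrm2 -0.23, Adora1 -0.074 and Adora2a -0.004 for the interaction. In batch 2 they were Adra1d -0.38 for Acadvl KO, Adra1a 0.003 for Acadvl Het and -0.11 for the interaction. Without the Alb libraries Adra1d was -0.16 and Adora2b -0.25 between the KO labels, and with voom Adrb1 was 0.069 for Acadvl Het. Leaving out 1 library, reversing values ranged as follows: between the KO labels, Adra1b -0.025 to 0.19, Adra1d -0.22 to 0.29, Adrb1 -0.19 to 0.056 and Adora2b -0.29 to 0.34; for Acadvl KO, Adra1d -0.17 to 0.37; for Acadl Het, Adra1b -0.036 to 0.15 and Adrb1 -0.063 to 0.33; for Acadvl Het, Adora2a -0.19 to 0.083, Adora2b -0.52 to 0.071, Adrb1 -0.18 to 0.21 and Chrm2 -0.12 to 0.057; for the interaction, Adora2a -0.14 to 0.33, Adora2b -0.043 to 0.60, Adra1a -0.046 to 0.23 and Chrm2 -0.10 to 0.18.

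Without the length correction, the order of levels was Adra1b, Adra1a, Chrm2, Adora2a, Adora1 and Adrb1. Without the Alb libraries, Acadvl Het and the interaction have no value, since all Acadl Het / Acadvl Het libraries exceed the limit, and the comparison with Acadl Het used Acadl Het / Acadvl wt alone, an alternative added after the data were seen. In batch 1, 3 of the 6 genotypes have 1 library, assumed to vary like the others. No paired analysis was possible because replicate numbers follow accession order. At 0 to 12 counts, differences in Adrb3 were not detectable at this depth.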
